A study of Caenorhabditis elegans with 12 samples.

Results

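The cytochrome P450 (*cyp*), UDP-glucuronosyltransferase (*ugt*) and glutathione S-transferase (*gst*) genes of *C. elegans* were followed in L3 larvae of JR667 and of 3 *lin-22* mutant strains. Members were all genes in the count table whose WBcel235 symbol starts with cyp-, ugt- or gst- and whose mean raw count over the 12 libraries was at least 10, with the most abundant transcript standing for each gene. The rule kept 183 of 186 genes, out of 20185 named genes in the table: 72 of 75 *cyp*, 67 of 67 *ugt* and 44 of 44 *gst* genes. The genes left out were *cyp-35B3*, *cyp-33C1* and *cyp-13B2*, with mean raw counts of 0.67, 4.25 and 9.08, and the members just above the minimum were *cyp-34A3*, *cyp-14A3* and *ugt-35*, with 10.67, 10.75 and 12.75. All 183 members also passed the expression filter of the test. Of these genes, 91 lie on chromosome V, 38 on II, 23 on IV, 13 on X, 10 on III and 8 on I.

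Enzymes of these families process foreign compounds and many of the animal's own lipids in consecutive steps. Cytochrome P450s oxidise a lipophilic substrate with electrons passed on by the NADPH-P450 reductase EMB-8, UGTs attach a sugar from a UDP-sugar donor, and GSTs attach glutathione, after which ABC transporters can export the product. In the nematode the intestine carries much of this chemistry, and several members, *gst-4* and the *cyp-35A* genes among them, are widely used as reporters of oxidative or xenobiotic stress.

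JR667 carries the seam cell marker scm::GFP (wIs51, V) and *unc-119(e2498::Tc1)* III and was the strain with wild-type *lin-22*, which encodes a Hes-related bHLH factor. *lin-22(icb38)* (strain MBA81) also carries wIs51 and has a deletion upstream of the gene, its *lin-22* side being 2371 bp from the ATG. The authors report that this deletion also takes away part of the neighbouring gene *vrp-1* and that inserted *mca-3* sequence takes its place. *lin-22(ot267)* (OH4265) has a premature stop codon and *lin-22(ot269)* (OH4271) a single C-to-T change farther upstream of the ATG, and both carry the dopaminergic neuron marker transgene vtIs1 on V in place of wIs51. Each strain gave 3 libraries of whole, bleach-synchronised larvae collected 31 hours after hatching. Each allele was read in 1 strain, so that an effect of the allele and of anything else carried by that strain cannot be told apart. In both comparisons of a vtIs1 strain with JR667, the allele and the marker transgene cannot be told apart either.

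Total counts were 56479069 to 78920246 per library, and the members held 0.512% to 0.659% of them. Normalised counts of *lin-22* itself were 339, 249 and 265 for JR667, 268, 106 and 196 for *icb38*, 354, 334 and 291 for *ot267*, and 166, 157 and 100 for *ot269*. The gene was lower in *ot269* than in JR667 (log2 fold change -1.01, edgeR adjusted p = 0.0207) and did not pass the test in the others. The JR667 libraries differed among themselves: the cuticle collagen gene *bli-1* had 1475, 5365 and 10220.4 normalised counts in them and no more than 977 in any mutant library. Intestinal marker RNA was present throughout: over 16 markers, the summed normalised count was 578165 to 632407 in JR667, 528099 to 745462 in *icb38*, 465093 to 570647 in *ot267* and 552133 to 578972 in *ot269*, and the intestinal GATA factor gene *elt-2* passed the test in none of the mutants. Of these markers, 0 were called higher and 4 (25%) lower in *icb38*, where 8.55% of all entries tested were lower, and 0 and 0 in *ot267*. In *ot269*, 2 (12.5%) were higher and 5 (31.2%) lower, where 12.9% and 13.4% of all entries were. Single markers differed more than the sums: their log2 fold changes ran from -4.76 to 0.21 in *icb38*, -1.55 to 0.18 in *ot267* and -5.24 to 0.91 in *ot269*. The medians were -0.06, -0.05 and -0.19. Because whole larvae were sequenced, fewer cells of a type and less RNA per cell cannot be told apart.

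The 3 families did not move as 1 group. In *icb38* against JR667, 25 members (13.7%) were higher and 33 (18%) lower at an edgeR adjusted p of at most 0.1, where 7.66% of all 19696 entries tested were called higher and 8.55% lower. By family this was 18 higher and 2 lower of 44 *gst* genes, 4 and 11 of 72 *cyp* genes, and 3 and 20 of 67 *ugt* genes, with median log2 fold changes of 0.56, 0.03 and -0.16 against 0.01 over all entries. In *ot267* against JR667, 8 members (4.37%) were higher and 32 (17.5%) lower (background 4.1% and 4.59%): 2 and 1 of the *gst* genes, 2 and 14 of the *cyp* genes and 4 and 17 of the *ugt* genes, with medians of -0.04, -0.29 and -0.19. In *ot269* against JR667, 36 members (19.7%) were higher and 36 (19.7%) lower (background 12.9% and 13.4%): 10 and 3 *gst*, 15 and 13 *cyp*, and 11 and 20 *ugt* genes, with medians of -0.00, 0.16 and -0.13. With this scaling the share called lower was above the background in every mutant, and the share called higher was above it in *icb38* and *ot269* and near it in *ot267*.

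**Figure D1:**
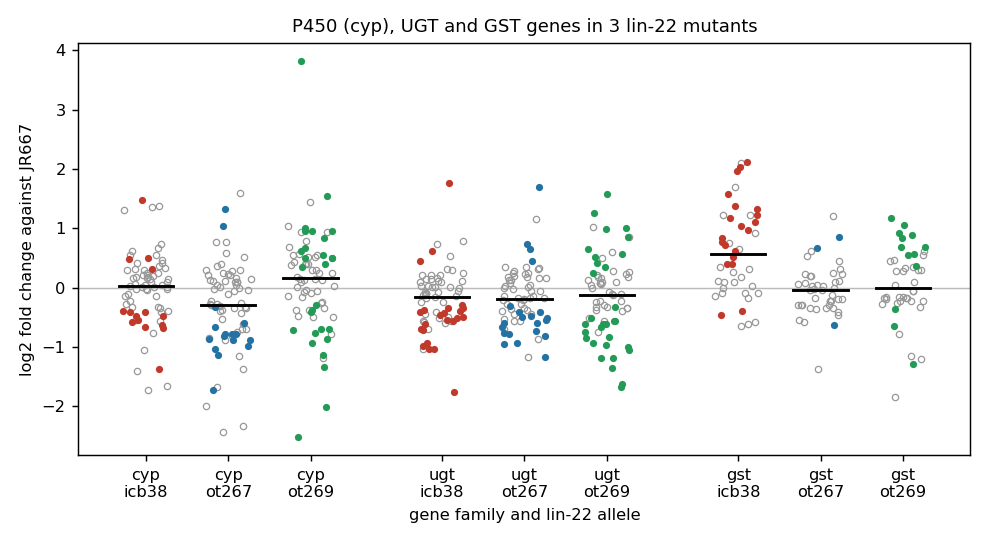
Log2 fold change of every member (y axis) in each mutant against JR667, by family. Each point is 1 gene, filled where the edgeR adjusted p was at most 0.1 and open grey where it was not, and the black line is the family median: the *gst* median lies at 0.56 in *lin-22(icb38)* and at -0.04 and -0.00 in the other mutants.

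These comparisons share the JR667 libraries. Between the mutants, *ot269* against *ot267*, the pair with the same marker transgene, had 25 members (13.7%) higher and 15 (8.2%) lower (background 5.63% and 4.3%), of which 14 and 4 were *cyp*, 6 and 10 *ugt* and 5 and 1 *gst* genes. In *icb38* against *ot267*, 46 (25.1%) were higher and 20 (10.9%) lower (background 7.91% and 10.2%), and in *ot269* against *icb38*, 28 (15.3%) were higher and 35 (19.1%) lower (background 9.75% and 8.53%), with 4 *gst* genes higher and 16 lower in the latter. An F-test over the 4 strains called 62.3% of the members (background 34.9%): 38 *cyp*, 50 *ugt* and 26 *gst* genes.

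Scaling by library totals moved the median of all entries to 0.14 in *ot269*, 0.09 in *ot267* and 0.11 in *ot269* against *icb38*, and changed the split of calls to 13 higher and 24 lower in *ot267* (background 6.94% and 3.38%), 42 and 30 in *ot269* (20.6% and 7.77%), 28 and 9 in *ot269* against *ot267* (6.37% and 3.05%) and 35 and 28 in *ot269* against *icb38* (15.5% and 4.51%). With that scaling the share called higher in *ot269* lay near its background. In the same fit 9 *ugt* genes were higher and 11 lower in *ot267*, 17 *cyp* genes were higher and 10 lower in *ot269*, and the median of the *gst* genes was 0.03 in *ot267* and 0.12 in *ot269*. The number of calls also depended on single libraries. In *icb38* it fell from 58 to 32 (15 higher, 17 lower) without JR667 replicate 3 and to 36 (17 higher, 19 lower) without *icb38* replicate 3, where the background was 4.4% and 4.41%, and 4.64% and 5.31%. In *ot267* it fell from 40 to 22 without *ot267* replicate 3, where the background was 1.94% and 2.3%. In *ot269* against *ot267* it fell from 40 to 21, 24 and 22 without *ot269* replicates 1, 2 and 3. There the background was 3.16% and 1.91%, 4.03% and 2.67%, and 3.36% and 2.07%. Without *ot267* replicate 2 the number was 23, with a background of 3.87% and 2.56%. Of the calls, 29 of 58 in *icb38*, 17 of 40 in *ot267*, 46 of 72 in *ot269* and 17 of 40 in *ot269* against *ot267* were made in each of the 6 fits that left out 1 library of the strains compared. By family, the lower calls in *icb38* numbered 5, 7 and 6 *cyp* and 10, 12 and 11 *ugt* genes without JR667 replicate 3, *icb38* replicate 1 and *icb38* replicate 3. Of all entries, 4.41%, 7.36% and 5.31% were lower in these fits. The lower calls in *ot267* numbered 8 *cyp* and 11 *ugt* genes without JR667 replicate 1, 8 and 10 without *ot267* replicate 3, and 9 *ugt* genes without *ot267* replicate 1. Here 3.47%, 2.3% and 3.47% of all entries were lower. The higher calls in *ot269* numbered 6 and 5 *gst* genes without JR667 replicates 2 and 3, and 7 and 6 *ugt* genes without JR667 replicate 3 and *ot269* replicate 3. Without JR667 replicate 2, JR667 replicate 3 and *ot269* replicate 3, 12.3%, 9.19% and 8.88% of all entries were higher. In *ot269* against *ot267* the higher *cyp* calls numbered 7 without *ot267* replicate 1 or *ot269* replicate 1 and 8 without *ot267* replicate 2 or *ot269* replicate 3, and the higher *gst* calls 3 without each of these libraries. In the order named, 4.29%, 3.16%, 3.87% and 3.36% of all entries were higher. The lower *ugt* calls in this comparison numbered 5 without *ot267* replicate 2 or 3 and 6, 3 and 4 without *ot269* replicates 1, 2 and 3. In the same order, 2.56%, 3.75%, 1.91%, 2.67% and 2.07% of all entries were lower. In *ot269* against *icb38*, 23 members were lower without *ot269* replicate 2, where 4.4% of all entries were. Any call named below that was not made in all 6 is given with its number of fits, except where that number is said not to be given.

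The *gst* genes were the family that rose in *icb38*. The largest rise was that of *gst-4*, a target of SKN-1 and the standard reporter of oxidative stress. Its normalised counts were 1631, 1578 and 1917 in JR667, 8611, 7251 and 6244 in *icb38*, 1819, 1393 and 1788 in *ot267*, and 2044, 1915 and 2281 in *ot269*. The *icb38* libraries lay above all 9 others, a 4.31-fold difference from JR667 (log2 fold change 2.11, SE 0.142, edgeR adjusted p = 1.81e-06). The same gene was higher in *icb38* than in *ot267* by 2.14 and lower in *ot269* than in *icb38* by -1.82 on the log2 scale, while the differences of *ot267* and *ot269* from JR667 were -0.04 (edgeR adjusted p = 0.91) and 0.28 (0.167).

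Next in size was *gst-12*, with 774, 538 and 262 normalised counts in JR667, 2075, 1951 and 2418 in *icb38*, 471, 343 and 433 in *ot267* and 624, 552 and 742 in *ot269* (*icb38* against JR667 2.03, SE 0.272, edgeR adjusted p = 0.000511). Its neighbour *gst-14* had 412, 241 and 212 in JR667, 714, 1022 and 849.9 in *icb38*, 181, 226 and 217 in *ot267* and 205, 266 and 302 in *ot269* (1.58, SE 0.232, edgeR adjusted p = 0.000855). In both genes the *icb38* libraries did not overlap any other strain's, and the JR667 values spread widely, replicate 1 being the highest. *gst-16* had 121, 94.2 and 58.4 in JR667, 283, 314 and 466 in *icb38*, 168, 153 and 175 in *ot267* and 169.9, 147 and 122 in *ot269*. It was called higher in each mutant, with log2 fold changes of 1.96 (SE 0.263, edgeR adjusted p = 0.000511), 0.86 (0.076) and 0.68 (0.0865). The calls in *ot267* and *ot269* were each made in 2 of 6 fits; those in *ot267* were lost without JR667 replicate 2 or 3 or *ot267* replicate 1 or 3, and those in *ot269* without JR667 replicate 2 or 3 or *ot269* replicate 1 or 2.

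**Figure D2:**
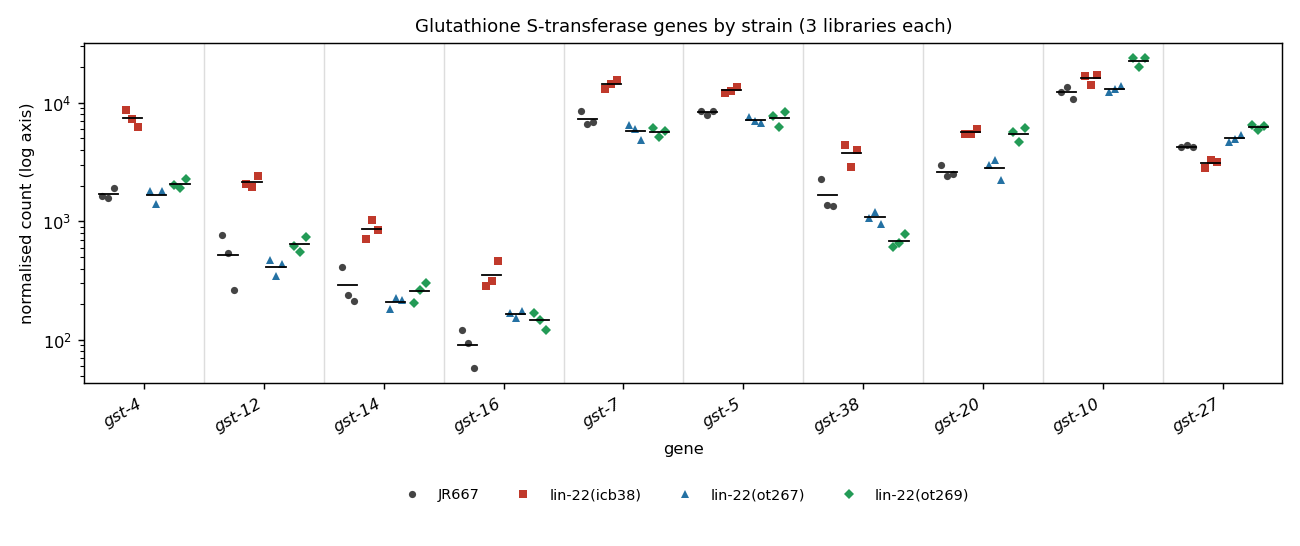
Normalised counts of 10 *gst* genes in each library (y axis), by strain. Points are libraries and the black line is the mean of 3: *gst-4*, *gst-12*, *gst-14*, *gst-7* and *gst-5* are highest in all 3 *lin-22(icb38)* libraries, *gst-10* and *gst-27* in all 3 *lin-22(ot269)* libraries, and *gst-38* is highest in *lin-22(icb38)* and lowest in *lin-22(ot269)*.

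*gst-7* and *gst-5* were higher in *icb38* as well. *gst-7* had 8556, 6586 and 6848 normalised counts in JR667, 13099.9, 14335 and 15632 in *icb38*, 6488, 6056 and 4879.7 in *ot267* and 6174, 5147 and 5769.6 in *ot269* (*icb38* 0.97, SE 0.132, edgeR adjusted p = 0.000552). *gst-5*, whose product conjugates the lipid peroxidation product 4-hydroxynonenal, had 8548, 7952 and 8569 in JR667 and 12118, 12631 and 13550.3 in *icb38* (0.61, SE 0.11, edgeR adjusted p = 0.00312), with 6759 to 7625 in *ot267* and 6235 to 8279 in *ot269*. *gst-13*, chosen after its values were seen, went from 4968 to 6304 in JR667 to 9460.3 to 9853 in *icb38* (0.76, edgeR adjusted p = 6.63e-04). As a family, *gst* transcripts held 0.115% to 0.143% of all counts in JR667, 0.162% to 0.194% in *icb38*, 0.121% to 0.123% in *ot267* and 0.133% to 0.157% in *ot269*.

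A few *gst* genes changed in *ot269* or in opposite directions. *gst-38* had 2293, 1371 and 1345 normalised counts in JR667, 4399, 2861 and 3976 in *icb38*, 1064, 1210.1 and 959 in *ot267* and 609.9, 657 and 778 in *ot269*. It was higher in *icb38* (1.17, SE 0.2, edgeR adjusted p = 0.00224) and lower in *ot269* (-1.29, SE 0.204, edgeR adjusted p = 0.000583), with no overlap between any of these groups. In *ot267* the value was -0.63 (edgeR adjusted p = 0.0851, 3 of 6 fits, lost without JR667 replicate 1 or *ot267* replicate 1 or 3, lowest size -0.33). The *icb38* and *ot269* libraries differed by -2.46 on the log2 scale. *gst-27* moved the other way, with 4195, 4408 and 4205 in JR667, 2799.9, 3313 and 3136 in *icb38*, 4688, 4963 and 5391 in *ot267* and 6495, 5903 and 6317 in *ot269*. This was a fall in *icb38* (-0.47, SE 0.0955, edgeR adjusted p = 0.00666) and a rise in *ot269* (0.55, SE 0.0952, edgeR adjusted p = 0.00126).

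*gst-20* rose in both upstream mutants. Its normalised counts were 2976, 2414 and 2495 in JR667, 5464, 5474 and 6021 in *icb38*, 2977, 3294 and 2239 in *ot267* and 5674, 4634 and 6145 in *ot269*, which gave 1.10 in *icb38* (SE 0.144, edgeR adjusted p = 4.62e-04) and 1.06 in *ot269* (SE 0.144, edgeR adjusted p = 1.68e-04). Against *ot267*, its value was 0.95 in *ot269* and 0.99 in *icb38*. *gst-10*, which also acts on 4-hydroxynonenal, had 12232, 13603 and 10839 in JR667, 16819, 14238 and 17182 in *icb38*, 12342, 13074 and 13838 in *ot267* and 23753, 19904 and 23609 in *ot269*. It was higher in *ot269* than in JR667 by 0.88 (SE 0.117, edgeR adjusted p = 1.53e-04) and than in *ot267* by 0.78, and the smaller difference in *icb38* (0.40, edgeR adjusted p = 0.043) was made in 3 of 6 fits, being lost without JR667 replicate 3 or *icb38* replicate 1 or 3. *gst-1*, studied for its part in manganese toxicity in dopamine neurons, fell in *ot269* (-0.64, SE 0.148, edgeR adjusted p = 0.00776), from 19714, 12615 and 13345 in JR667 to 10168, 8925 and 10114, with 19027, 18152 and 19264 in *icb38* (0.31, edgeR adjusted p = 0.211) and 10948 to 13380.5 in *ot267*.

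Several of these genes sit side by side. In the row *gst-20*, *gst-24*, *gst-15*, *gst-14*, *gst-12*, *gst-16*, *gst-19*, *gst-17* and *gst-18* on chromosome II, 6 of 9 genes were higher in *icb38*, 1 in *ot267* and 4 in *ot269*, and *gst-17*, *gst-18* and *gst-19* passed the test in none of these. The counts are 66.7%, 11.1% and 44.4% of the row, where 7.66%, 4.1% and 12.9% of all entries were higher. *gst-24* rose by 0.83 in *icb38* and 0.92 in *ot269*, and *gst-15* by 1.38 and 0.83 (edgeR adjusted p = 0.0644 in *ot269*, 2 of 6 fits, lost without JR667 replicate 2 or 3 or *ot269* replicate 1 or 3). Neighbouring genes of a family are similar in sequence and may share reads, so that values of single genes in such rows are uncertain.

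Among the P450s the *cyp-35* group, which is expressed in the intestine, induced by many xenobiotics and tied to fat storage, held the members with the highest counts. Of its genes, *cyp-35A3*, *cyp-35A4* and *cyp-35C1* were called lower in each mutant and *cyp-35A2* in *icb38*. Counts are not corrected for transcript length and do not rank genes by abundance. *cyp-35A3* had 15930.0, 15071 and 16023 normalised counts in JR667, 9205, 11471 and 8859 in *icb38*, 10140.4, 7277 and 9725 in *ot267* and 9018, 7908 and 10819.7 in *ot269*. No mutant library reached the JR667 range, and the differences were -0.67 (SE 0.146, edgeR adjusted p = 0.0097), -0.79 (0.00563) and -0.76 (0.00246). *cyp-35A4* had 2765, 2636 and 3310.1 in JR667, 1781, 2228 and 2234 in *icb38*, 1724, 1340.3 and 1652 in *ot267* and 1557, 1457 and 1795 in *ot269*. It differed by -0.48 (edgeR adjusted p = 0.0331, 4 of 6 fits, lost without JR667 replicate 3 or *icb38* replicate 1), -0.89 (0.00146) and -0.86 (0.000558).

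The P450 entry with the highest counts, *cyp-35C1*, had 42894, 38073 and 39789 normalised counts in JR667, 20917, 38166 and 18719 in *icb38*, 23609.8, 17448 and 24454 in *ot267* and 15992, 14889.9 and 17195 in *ot269*. All *ot267* and *ot269* libraries were below JR667 (-0.88, SE 0.211, edgeR adjusted p = 0.0245, and -1.33, SE 0.213, edgeR adjusted p = 0.000675), a 2.51-fold difference in *ot269*. In *icb38*, replicate 2 lay within the JR667 range and the other libraries were well below it (-0.63, SE 0.211, edgeR adjusted p = 0.069). That call was made in 2 of 6 fits, being lost without JR667 replicate 1 or 3 or *icb38* replicate 1 or 3, and without *icb38* replicate 2 the value was -1.03. *cyp-35A2* had 21769, 21649 and 22660.3 in JR667 and 13502, 19449 and 14472 in *icb38* (-0.48, edgeR adjusted p = 0.0529, 3 of 6 fits, lost without JR667 replicate 3 or *icb38* replicate 1 or 3), 13636 to 19577 in *ot267* and 15499.5 to 18188 in *ot269*.

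**Figure D3:**
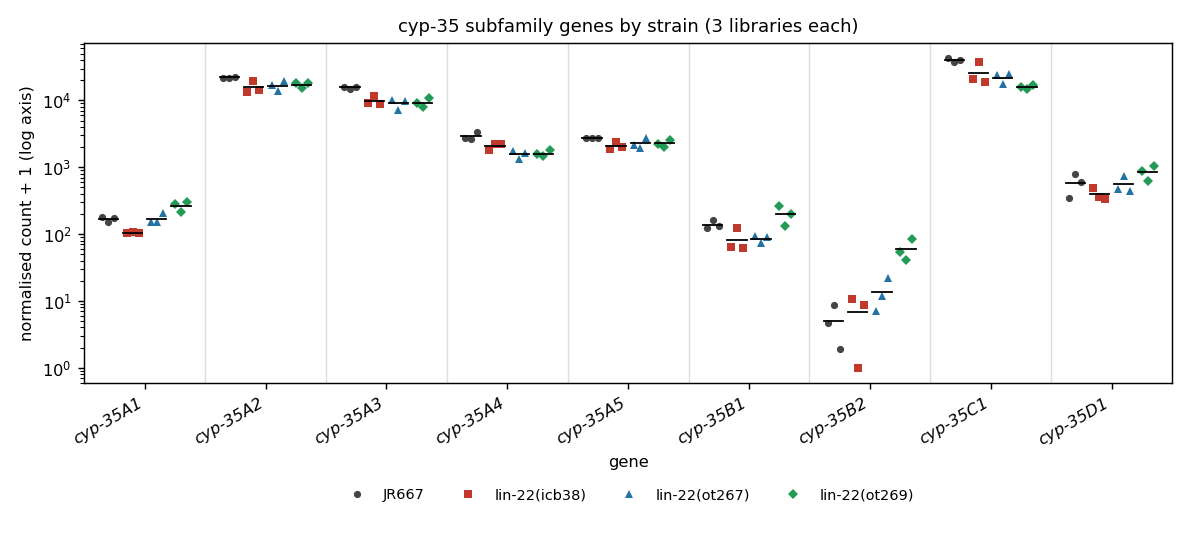
Normalised counts plus 1 of the *cyp-35* genes in each library (y axis, log scale), by strain. Points are libraries and the black line is the mean: *cyp-35A3*, *cyp-35A4* and *cyp-35C1* are lower in *ot267* and *ot269* than in JR667, whereas *cyp-35A1* and *cyp-35B2* are highest in *ot269*. *cyp-35B2* reached the minimum mean raw count only through the *ot269* libraries.

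Members of the group with low counts had other values. *cyp-35A1* had 179, 148 and 175 normalised counts in JR667, 104, 105 and 103 in *icb38*, 152, 149.9 and 203 in *ot267* and 283, 211 and 296 in *ot269*. It was lower in *icb38* (-0.68, SE 0.2, edgeR adjusted p = 0.0422, 4 of 6 fits, lost without JR667 replicate 3 or *icb38* replicate 3) and higher in *ot269* (0.66, SE 0.194, edgeR adjusted p = 0.0294, 4 of 6 fits, lost without *ot269* replicate 1 or 3). These mutants did not overlap and differed by 1.34 (edgeR adjusted p = 4.98e-04). All 5 *cyp-35A* genes were called lower in *icb38* (background 8.55%), with values from -0.68 to -0.39, of which that of *cyp-35A3* alone was called in all 6 fits. In *ot267*, 0 were higher and 2 lower (background 4.1% and 4.59%), and in *ot269*, 1 and 2 (background 12.9% and 13.4%). Reads may be shared among the closely related *cyp-35A2* to *cyp-35A5*.

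*cyp-35B2* had few reads, with 3.67, 7.61 and 0.913 normalised counts in JR667, 9.67, 0 and 7.73 in *icb38*, 6.13, 10.7 and 20.7 in *ot267* and 52.8, 40.2 and 82.3 in *ot269*. The *ot269* libraries lay above all others (3.81 against JR667, SE 0.9, edgeR adjusted p = 0.0091), and the value against *ot267* was 2.22 (edgeR adjusted p = 0.131). The mean raw count of *cyp-35B2* reached the minimum of 10 only through the *ot269* libraries. Its selection thus depended on the strain where it was high, and these values describe the gene without supporting a rise. Its neighbour *cyp-35B1*, also named *dod-13* as a gene downstream of DAF-16, had 121, 163 and 129.6 in JR667, 62.9, 121 and 59.9 in *icb38*, 92, 71.4 and 90.8 in *ot267* and 259.6, 133 and 199 in *ot269*. It was higher in *ot269* than in *ot267* (1.22, SE 0.306, edgeR adjusted p = 0.0266, 4 of 6 fits, lost without *ot267* replicate 2 or *ot269* replicate 1) and did not pass the test against JR667 in any mutant.

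Several *cyp-13A* genes were lowest in *ot267*. *cyp-13A2* had 5917, 4425 and 5568 normalised counts in JR667, 4610.4, 6028 and 5400.4 in *icb38*, 3144, 2984 and 3056 in *ot267* and 9874, 7975 and 10663 in *ot269*. It was lower in *ot267* than in JR667 (-0.79, SE 0.136, edgeR adjusted p = 0.00358) and higher in *ot269* (0.84, SE 0.136, edgeR adjusted p = 6.88e-04). Between these mutants, which share vtIs1, the difference was 3.1-fold (1.63, SE 0.138, edgeR adjusted p = 6.00e-06), and *icb38* did not differ from JR667 beyond the spread (0.01, edgeR adjusted p = 0.97).

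*cyp-13A5* had 614, 455 and 635 in JR667, 466, 856 and 963 in *icb38*, 362, 340.0 and 280.4 in *ot267* and 681, 776 and 636 in *ot269*. *cyp-13A6* had 189, 131 and 116, 168, 162 and 178, 90, 81.2 and 48.3, and 189.9, 189 and 209.8 in the same order of strains. The *ot267* libraries were the lowest of all 12 for both genes. Against JR667, *cyp-13A5* was at -0.79 in *ot267* (edgeR adjusted p = 0.0521, 3 of 6 fits, lost without JR667 replicate 1 or 3 or *ot267* replicate 3) and *cyp-13A6* at -0.98 (edgeR adjusted p = 0.0333, 4 of 6 fits, lost without JR667 replicate 1 or *ot267* replicate 3). In *ot269* against *ot267* they were at 1.09 (edgeR adjusted p = 0.00764) and 1.42 (0.00274), both in all 6 fits.

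Over the 11 *cyp-13A* members, 0 were higher and 3 lower in *ot267* than in JR667, 2 and 0 in *icb38*, and 2 and 0 in *ot269*. The background was 4.1% and 4.59%, 7.66% and 8.55%, and 12.9% and 13.4%. In *ot269* against *ot267*, 7 were higher and 0 lower (background 5.63% and 4.3%), with a median log2 fold change of 1.42 against -0.01 over all entries tested. Of these calls, 3 (*cyp-13A2*, *cyp-13A5* and *cyp-13A6*) were made in all 6 fits. In *icb38* against *ot267*, which differ in marker transgene, 7 were also higher and 0 lower (background 7.91% and 10.2%). *cyp-13A12*, which oxidises polyunsaturated fatty acids in the behavioural response to oxygen, had 358, 365 and 301 in JR667, 513, 284 and 824 in *icb38*, 269.9, 339 and 147 in *ot267* and 479, 529 and 489 in *ot269*, with wide spread in *icb38* and *ot267*. Its value in *ot269* against *ot267* was 0.98 (edgeR adjusted p = 0.084), made in 1 of 6 fits, since leaving out *ot267* replicate 1 or 3 or any *ot269* library ended the call.

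**Figure D4:**
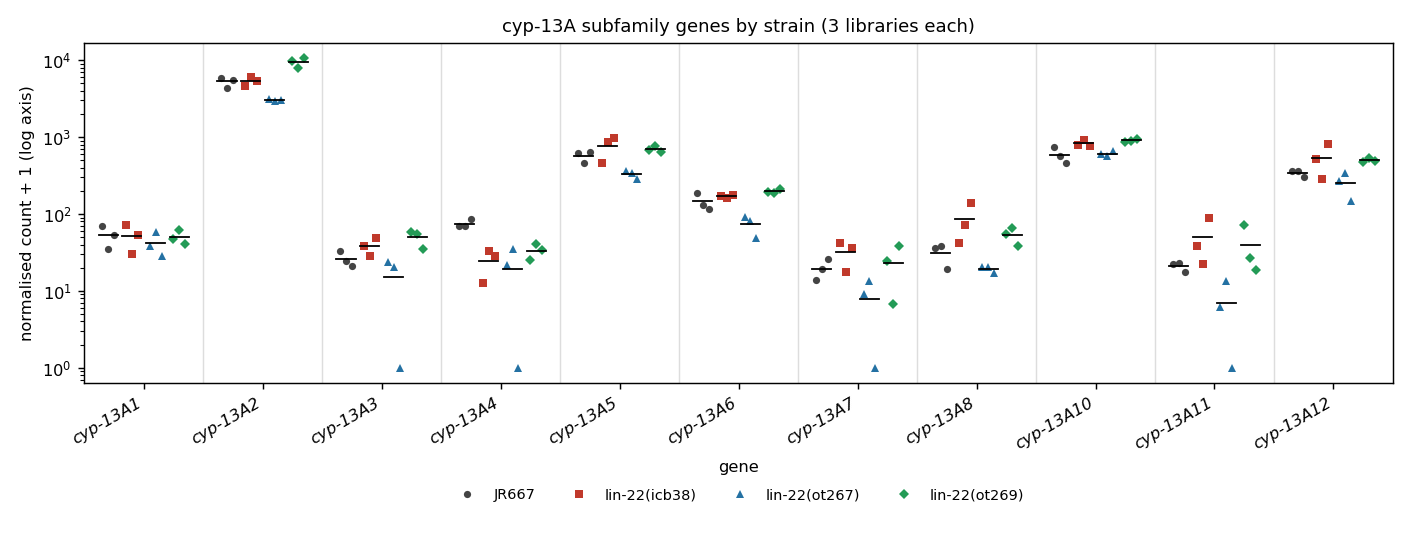
Normalised counts plus 1 of the 11 *cyp-13A* genes in each library (y axis, log scale), by strain. Points are libraries and the black line is the mean: for *cyp-13A2*, *cyp-13A5* and *cyp-13A6* all 3 *lin-22(ot267)* libraries are the lowest of the 12.

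Of the other P450 genes, *cyp-14A2* was lower in *icb38* alone among the comparisons with JR667. It had 662, 698 and 605 normalised counts in JR667, 228, 271 and 255 in *icb38*, 759.7, 593 and 935 in *ot267* and 835, 477 and 603 in *ot269*, a 2.61-fold difference between *icb38* and JR667 (-1.38, SE 0.2, edgeR adjusted p = 0.000774). The *icb38* libraries lay below all others, by -1.60 against *ot267* on the log2 scale. *cyp-14A5* went the other way in all 3 mutants, with 5394, 3663 and 3645 in JR667, 6044, 4994 and 6713 in *icb38*, 8512, 8902 and 8694 in *ot267* and 5641, 6490.0 and 5687 in *ot269*. The rise was largest in *ot267* (1.04, edgeR adjusted p = 0.000936), where no library overlapped another strain's. In *icb38* (0.48, edgeR adjusted p = 0.049, 2 of 6 fits) it was lost without JR667 replicate 2 or 3 or *icb38* replicate 1 or 3, and in *ot269* (0.49, edgeR adjusted p = 0.0319, 3 of 6 fits) without JR667 replicate 2 or 3 or *ot269* replicate 2. Over the 5 *cyp-14A* members, 1 was higher and 2 lower in each mutant, with lowest values of -1.41, -2.34 and -2.51. The background was 7.66% and 8.55%, 4.1% and 4.59%, and 12.9% and 13.4%. The lower genes differed between the mutants, and none was lower in all 3. *cyp-14A2* was called lower in *icb38* only, *cyp-14A3* in *ot269* only and *cyp-14A4* in both *ot267* and *ot269*. *cyp-14A3* lay near the count minimum (mean raw count 10.75). For *cyp-14A3* and *cyp-14A4* the number of fits is not given.

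*cyp-37A1* was highest in *ot269*. It had 3039.7, 3023 and 2836 normalised counts in JR667, 3968, 3644 and 3421 in *icb38*, 2928, 2607 and 2724 in *ot267* and 6280.0, 5438 and 5637 in *ot269* (0.96 against JR667, SE 0.0964, edgeR adjusted p = 1.20e-05, and 1.07 against *ot267*, SE 0.0967, edgeR adjusted p = 9.55e-06). The gene was also called higher in *icb38* than in JR667, without overlap of their libraries. That call was not made in all 6 fits, and its number of fits is not given. Its relative *cyp-37B1* had 217, 319.7 and 302 in JR667, 118, 291 and 161 in *icb38*, 169.7, 146 and 149 in *ot267* and 714, 581 and 326 in *ot269*. The *ot269* libraries were again the highest, at 1.80 against *ot267* (edgeR adjusted p = 0.00246) and 0.95 against JR667 (edgeR adjusted p = 0.041, 3 of 6 fits, lost without JR667 replicate 1 or *ot269* replicate 1 or 2). *cyp-32A1* was higher in both vtIs1 strains, with 482, 381 and 426 in JR667, 489, 318 and 606 in *icb38*, 817, 1374 and 1027 in *ot267* and 758, 865 and 869 in *ot269* (1.32, edgeR adjusted p = 0.00243, and 0.95, edgeR adjusted p = 0.00681). *cyp-25A3*, chosen after its values were seen, was lower in the same strains, by -0.82 (edgeR adjusted p = 0.00205) and -0.93 (2.21e-04), from 1964 to 2392 in JR667 to 1084 to 1317 and 1015 to 1276.

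Other members with a known role were read one by one. *cyp-33E2*, which makes eicosanoids from polyunsaturated fatty acids, had 1275 to 1360.0 normalised counts in JR667 and 1599 to 1860.5 in *ot269* (0.39, edgeR adjusted p = 0.0164). *cyp-29A3*, another eicosanoid-forming enzyme, *cyp-31A2* and *cyp-31A3*, which act in making the lipid layer of the eggshell, and *cyp-36A1*, which lies downstream of EGL-9 and HIF-1, passed the test in none of the mutants against JR667. *cyp-44A1*, the mitochondrial P450, fell by 0.41 on the log2 scale in *icb38* (edgeR adjusted p = 0.0127), from 1445 to 1493 normalised counts to 1055 to 1167, with -0.29 in *ot269* (edgeR adjusted p = 0.0433, 4 of 6 fits, lost without *ot269* replicate 1 or 2).

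The *ugt* genes were called lower more often than higher in each mutant. In *ot267* and *ot269* the lower calls included a row of 8 neighbouring genes on chromosome V: *ugt-12*, *ugt-11*, *ugt-9*, *ugt-10*, *ugt-67*, *ugt-8*, *ugt-14* and *ugt-13*. In this row 0 were higher and 7 lower in *ot267*, 0 and 6 in *ot269*, and 0 and 1 in *icb38*. The background was 4.1% and 4.59%, 12.9% and 13.4%, and 7.66% and 8.55%. In *ot267* the calls of *ugt-12* (5 of 6 fits, lost without *ot267* replicate 1), *ugt-11* (2 of 6, lost without JR667 replicate 1 or 3 or *ot267* replicate 1 or 3) and *ugt-67* (2 of 6, lost without JR667 replicate 1 or 3 or *ot267* replicate 1 or 2) were not made throughout. In *icb38* against *ot267*, 6 of 8 were higher and 0 lower (background 7.91% and 10.2%). In *ot269* against *icb38*, 0 were higher and 7 lower (background 9.75% and 8.53%), so that *icb38* and the vtIs1 strains differed when compared directly. In *ot269* against *ot267*, which share vtIs1, 0 were higher and 4 of 8 lower (background 5.63% and 4.3%). vtIs1 lies on the same chromosome as the row, and so does wIs51. In the comparisons of a vtIs1 strain with JR667 or *icb38*, the marker and the alleles cannot be told apart.

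*ugt-13* had 8119, 7917 and 8313 normalised counts in JR667, 6293, 7841 and 6472 in *icb38*, 3249, 4306 and 3238 in *ot267* and 3153, 2249 and 2542 in *ot269*. Both vtIs1 strains were below every JR667 and *icb38* library, by 2.26-fold in *ot267* (-1.17, SE 0.142, edgeR adjusted p = 2.63e-04) and 3.07-fold in *ot269* (-1.62, SE 0.144, edgeR adjusted p = 4.58e-06), and the value in *icb38* was -0.24 (edgeR adjusted p = 0.304). *ugt-8* had 9383, 10143 and 9816 in JR667, 7895, 9379.9 and 7350.3 in *icb38*, 5989, 4667 and 6354 in *ot267* and 4367, 3373 and 3798 in *ot269* (-0.79, edgeR adjusted p = 0.00327, and -1.35, edgeR adjusted p = 1.21e-05). Its *ot269* libraries also lay below those of *ot267* (-0.56, edgeR adjusted p = 0.0199).

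*ugt-14* was the 1 gene of the row that was lower in *icb38* too. It had 394, 402 and 527 normalised counts in JR667, 231, 308 and 151 in *icb38*, 242, 211 and 234 in *ot267* and 149.8, 119 and 145 in *ot269*, all mutant libraries being below all JR667 libraries. The differences were -0.94 (edgeR adjusted p = 0.015), -0.94 (0.0227) and -1.68 (0.000177). *ugt-10* had 248, 230.3 and 266 in JR667, 302, 356 and 252 in *icb38*, 135, 109 and 142 in *ot267* and 141, 135 and 168 in *ot269*, with no vtIs1 library reaching the level of the others (-0.95 and -0.75 against JR667).

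**Figure D5:**
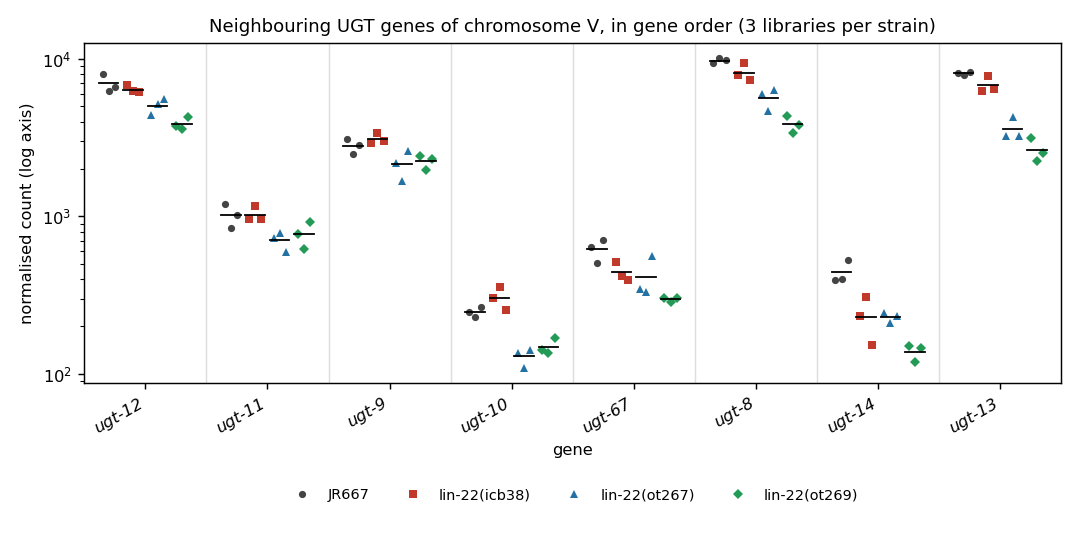
Normalised counts of the 8 neighbouring *ugt* genes on chromosome V in each library (y axis), in their order along the chromosome, by strain. Points are libraries and the black line is the mean: for *ugt-10*, *ugt-8* and *ugt-13* all *ot267* and *ot269* libraries lie below all JR667 and *lin-22(icb38)* libraries.

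The largest fall of any member in *icb38* was that of *ugt-53*. It had 698, 817 and 893 normalised counts in JR667, 328, 161 and 220.2 in *icb38*, 744, 1224 and 723 in *ot267* and 966, 944 and 1005 in *ot269*, a 3.38-fold difference (-1.76, SE 0.236, edgeR adjusted p = 5.11e-04) with no overlap between *icb38* and any other strain. *ugt-47* had 4205, 4353 and 6415 in JR667, 2538, 2336 and 2437 in *icb38*, 5389, 6176 and 7513 in *ot267* and 4875, 4524 and 4483 in *ot269* (-1.03, SE 0.153, edgeR adjusted p = 0.000907), and the *icb38* libraries were again the lowest. *ugt-66* fell in *icb38* (-0.98, edgeR adjusted p = 0.00148) and *ot269* (-0.94, edgeR adjusted p = 0.00102), from 3956, 5039.8 and 6535 in JR667 to 2401, 3072 and 2382 and to 2727, 2559.8 and 2832, while *ot267* had 4153, 3561 and 4355 (-0.36, edgeR adjusted p = 0.205). Rises in *icb38* were few, with 3 *ugt* genes higher (4.48%, background 7.66%): *ugt-34*, with few reads, went from 29.3, 50.4 and 38.3 in JR667 to 131, 99.3 and 174 (1.77, edgeR adjusted p = 0.021). In *ot269*, 11 *ugt* genes (16.4%, background 12.9%) were higher, and in *ot267* 4 (5.97%, background 4.1%). Both sets held *ugt-3*, *ugt-6* and *ugt-30*. For *ugt-3* and *ugt-30* the number of fits is not given.

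*ugt-6* differed between all strains. It had 2077, 2007 and 2119 normalised counts in JR667, 1616, 1747 and 1541 in *icb38*, 2736, 2485 and 3191 in *ot267* and 4573, 3939.7 and 3687 in *ot269*, with no overlap between any pair of strains. The value was 0.98 in *ot269* (SE 0.113, edgeR adjusted p = 4.29e-05), 0.44 in *ot267* (edgeR adjusted p = 0.0333, 5 of 6 fits, lost without *ot267* replicate 3) and -0.34 in *icb38* (edgeR adjusted p = 0.0686, 3 of 6 fits, lost without JR667 replicate 3 or *icb38* replicate 1 or 3). *ugt-29* parted the vtIs1 strains, with 2844, 1815 and 2698 in JR667, 3031, 2064 and 2986 in *icb38*, 4019, 4295 and 3869.8 in *ot267* and 1394, 1849.8 and 1756 in *ot269*. Its value was 0.73 in *ot267* (edgeR adjusted p = 0.0242), -0.56 in *ot269* (edgeR adjusted p = 0.0381, 3 of 6 fits, lost without JR667 replicate 1 or 3 or *ot269* replicate 1) and -1.29 between them (edgeR adjusted p = 3.26e-04).

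Other *ugt* genes were lower in each mutant. *ugt-16* had 12582, 10930.3 and 10152 normalised counts in JR667, 7815, 8588 and 8627 in *icb38*, 7404, 6457 and 8443 in *ot267* and 7197, 6731 and 8909 in *ot269* (-0.43, edgeR adjusted p = 0.0473, 4 of 6 fits, lost without JR667 replicate 1 or *icb38* replicate 1; -0.59, 0.0148; -0.56, 0.00809). The JR667 libraries were above all the others. *ugt-28* had 3072, 2276 and 3216 in JR667, 1981, 1879 and 2027 in *icb38*, 2152, 2331 and 1954 in *ot267* and 1439, 1253 and 1582 in *ot269* (-0.54, edgeR adjusted p = 0.0173; -0.41, 0.0859, 2 of 6 fits, lost without JR667 or *ot267* replicate 1 or 3). The fall was largest in *ot269*, where no library overlapped another strain's (edgeR adjusted p = 1.33e-04). *ugt-22*, the *ugt* entry with the highest counts, had 40262 to 49403 in JR667, 39827 to 49532 in *icb38*, 34637 to 39847 in *ot267* and 33400.0 to 39186 in *ot269* (-0.33 in *ot269*, edgeR adjusted p = 0.066, 2 of 6 fits, lost without JR667 replicate 1 or 3 or *ot269* replicate 1 or 2).

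Genes that work with these enzymes were read from lists of other symbols. Their shares are set beside those of all entries called higher and lower, which were 7.66% and 8.55% in *icb38*, 4.1% and 4.59% in *ot267* and 12.9% and 13.4% in *ot269*. Of 9 P450 partners and related oxidases and transferases, 2 (22.2%) were higher and 2 (22.2%) lower in *icb38*, the same numbers in *ot267*, and 4 (44.4%) and 3 (33.3%) in *ot269*. *emb-8*, which supplies electrons to the microsomal P450s, had 23738, 22473 and 23552 normalised counts in JR667, 13459, 20523 and 14949.7 in *icb38*, 15836, 14707 and 15086 in *ot267* and 13463, 12581 and 12828 in *ot269*. Every mutant library was below JR667, and *icb38* replicate 2 was again the nearest to it (-0.51, edgeR adjusted p = 0.0218; -0.61, 0.0127; -0.84, 4.99e-04). The flavin monooxygenase gene *fmo-4* was higher in *icb38* (0.62) and *ot269* (1.35, edgeR adjusted p = 5.94e-05), the sulfotransferase gene *ssu-1* in all mutants (1.78, 1.74 and 1.85), and *daf-9*, the P450 of dafachronic acid synthesis, in *ot269* (0.61, edgeR adjusted p = 0.00468). The flavin monooxygenase genes did not move together. *fmo-1* was lower in all mutants (-0.38, -0.39 and -0.53) and *fmo-5* in *ot269* (-0.63), while *fmo-3* was higher in *ot267* and *ot269* (0.59 in both). For *fmo-1*, *fmo-3* and *fmo-5* the number of fits is not given.

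Of 11 genes for glutathione supply and other glutathione transferases, 2 (18.2%) were higher and 0 lower in *icb38*, 0 and 2 (18.2%) in *ot267* and 1 (9.09%) and 6 (54.5%) in *ot269*, the higher share in *ot269* being under the background. *gcs-1*, the glutamate-cysteine ligase gene and a SKN-1 target like *gst-4*, was at 0.31 in *icb38* (edgeR adjusted p = 0.0485, 5 of 6 fits, lost without *icb38* replicate 3), and *gsr-1*, the glutathione reductase gene, was lower in *ot269* (-0.52, edgeR adjusted p = 0.0019). Of 22 ABC transporter genes of the *pgp* and *mrp* families, 7 (31.8%) were higher and 1 (4.55%) lower in *icb38*, 1 (4.55%) and 2 (9.09%) in *ot267* and 4 (18.2%) and 3 (13.6%) in *ot269*. They included *pgp-4* (1.12, edgeR adjusted p = 6.52e-05), *mrp-2* (0.75) and *mrp-7* (-1.36) in *icb38* and *pgp-1* (1.14) in *ot269*. The other higher calls in *ot269* were *pgp-8* (1.19), *pgp-11* (0.66) and *mrp-2* (0.37), and the lower ones *pgp-6* (-0.89), *pgp-7* (-0.94) and *pgp-14* (-0.67). In *ot267* the lower calls were *pgp-6* (-0.69) and *pgp-7* (-0.71). For these other calls the number of fits is not given. The lower share in *ot269* and the higher share in *ot267* were near the background. Of 23 regulators, 3 (13%) were higher and 1 (4.35%) lower in *icb38*, 2 (8.7%) and 1 (4.35%) in *ot267* and 5 (21.7%) and 2 (8.7%) in *ot269*, so that the shares called lower were at or under the background. *daf-16*, the FOXO factor gene, was higher in all (0.53, 0.50 and 0.77), *egl-9*, the prolyl hydroxylase gene, lower in all (-0.59, -0.93 and -0.73), and *daf-12*, the nuclear receptor for dafachronic acids, higher in *icb38* (1.01) and *ot269* (1.24). The value of *skn-1* itself in *icb38* was 0.34 (edgeR adjusted p = 0.065, 1 of 6 fits, made only without JR667 replicate 2) and 0.29 in *ot269* (edgeR adjusted p = 0.0786, 1 of 6 fits, made only without JR667 replicate 2). In *ot269*, *gst-4* and *gcs-1* did not pass the test (0.28 and -0.21). A part of SKN-1 in any of these values was not tested.

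Of 27 genes of lipid and starvation metabolism, 2 (7.41%) were higher and 6 (22.2%) lower in *icb38*, 1 (3.7%) and 5 (18.5%) in *ot267* and 2 (7.41%) and 15 (55.6%) in *ot269*. The shares called higher were near or under the background and those called lower above it. *fat-5*, a delta-9 desaturase gene, rose in all mutants (1.55, 2.05 and 3.18), and *fat-7*, of the same enzyme class, fell in *icb38* (-2.12) and *ot269* (-1.20). The acyl-CoA synthetase gene *acs-2*, induced on fasting, was lower in *ot267* (-2.50) and *ot269* (-2.44), as was the glyoxylate cycle gene *icl-1* (-1.18 in *ot267*, 5 of 6 fits, lost without *ot267* replicate 3).

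Markers of other tissues and of the moult differed between strains alongside these members, and their part in the values was not tested. The shares of all entries called higher and lower were 7.66% and 8.55% in *icb38* and 12.9% and 13.4% in *ot269*. In *icb38*, 0 of 9 germline markers were higher and 5 (55.6%) lower, with a summed normalised count of 27229.6 to 40103 against 34454 to 62385 in JR667, and 3 of 8 (37.5%) neuronal markers were higher and 0 lower (40412 to 43020.4 against 31045 to 36892). In *ot269*, 4 of 4 (100%) pharyngeal muscle markers were lower (62007 to 72875 against 96948 to 127021) and 5 of 9 (55.6%) moult cycle genes higher and 0 lower (307272 to 326145 against 178214 to 278805). In *ot269* against *ot267*, 7 moult cycle genes were higher and 1 lower (background 5.63% and 4.3%).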

How the data were processed

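Whole L3 larvae of 4 strains were sequenced with 3 libraries each (polyadenylated RNA, TruSeq stranded kit). The authors aligned reads with Bowtie2, obtained counts per transcript with bedtools and deposited them as whole numbers without normalisation. They also deposited normalised counts, a signal made by replacing each 0 with 1 and scaling with a size factor from DESeq, which was compared with the counts (size factors differed by up to 0.0179 of their value) and not tested. Versions, genome build, annotation and strand setting are not given in the sources used here, so no coordinates or sequences are given, overlapping or antisense genes may share reads, and levels were not compared between genes by length. Of 23953 entries, 23130 were matched to a name in the RefSeq WBcel235 gene table; isoforms are separate entries that can share reads, and 10 members have several. 2 members are pseudogenes. 185 entries do not name a gene. No unused per-sample columns were present (0).

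The whole count table was fitted in R 4.3.3 with edgeR 4.0.16 (glmQLFit, glmQLFTest), in 1 fit of the 12 libraries with RLE size factors (0.846 to 1.12) and filterByExpr at a count minimum of 10, which kept 19696 entries. Benjamini-Hochberg adjustment ran over these entries, and an adjusted p of at most 0.1 was called. Normalised counts in the text are counts divided by the RLE size factor. Approximate standard errors (SE) were obtained by dividing each log2 fold change by the root of its F statistic. Total counts were 56479069 to 78920246 per library, and the common biological coefficient of variation was 0.165. Replicates are separate libraries of a strain; that they are separate cultures is not stated, so p-values measure the spread between these libraries. No pair was the same library (chi-square per entry of at least 13.9).

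The members and lists were chosen with earlier results of these data known. Genes named are members with a well known role, in each mutant against JR667 and in *ot269* against *ot267* up to 8 of the largest rises and falls whose higher strain averaged 50 normalised counts or more, members called in all 3 mutants, the 3 with the highest counts in each family, the 10 with the smallest p in the F-test, and list genes called in a mutant; from these the text gives a selection. Other genes of a described row or subfamily are named with it, and *gst-13* and *cyp-25A3* were named outside these rules. Neighbouring genes are members with at most 1 other gene between them. The procedure was tested on simulated counts. Alternatives were a threshold of 0.05, TMM, library totals, other filters, 1 transcript per gene, a replicate block, fits of the compared libraries alone, DESeq2 1.42.0 and each library left out. Tables and plots were made with Python 3.11.15, numpy 2.4.6, pandas 2.3.3 and matplotlib 3.10.9.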

Additional observations from a re-analysis of the deposited data

How the results depend on the processing

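With 3 libraries per strain and 1 strain per allele, small changes and rare transcripts were the least certain. The number of members called moved by more than 1.5 times in a few settings. In *ot267* against JR667 it was 25 at a threshold of 0.05 and 24 when only the libraries compared were fitted, against 40, and in *ot269* against *ot267* it was 22 at 0.05, against 40. The shares of all entries called higher and lower in these settings were 2.46% and 2.95%, 1.63% and 2.64%, and 3.95% and 2.67%. Leaving out each library in turn gave 32 to 58 calls in *icb38* against JR667, 22 to 39 in *ot267*, 57 to 71 in *ot269*, 21 to 28 in *ot269* against *ot267*, 52 to 61 in *icb38* against *ot267* and 47 to 58 in *ot269* against *icb38*. Of all entries, 4.4% to 9.09%, 1.94% to 4.42%, 8.03% to 12.3%, 3.16% to 4.63%, 4.83% to 6.27% and 6.24% to 8.63% were higher in these fits. Those lower were 4.41% to 8.62%, 2.3% to 4.29%, 8.75% to 12.5%, 1.91% to 3.75%, 6.47% to 8.71% and 4.4% to 6.72%. DESeq2 gave 65, 51, 78, 50, 74 and 68 in the same order. With DESeq2 the shares of all entries called higher were 9.5%, 6.32%, 14.7%, 7.3%, 9.78% and 11.6%. The shares called lower were 10.2%, 6.59%, 15.2%, 6.15%, 12.2% and 10.5%. Among the 127 named genes, whose values alone were followed by gene, no called value reversed its direction under any alternative run. Of 381 calls among them over 6 comparisons, 247 were made in every fit that left out a library and 294 under every other alternative at the threshold of 0.1, while 68 were lost at 0.05. With a replicate block the calls numbered 45, 27, 68, 28, 63 and 60, also in that order. The block gave shares of all entries called higher of 6.02%, 3.11%, 11.1%, 4.65%, 6.31% and 8.43%. Those called lower were 6.86%, 3.57%, 11.4%, 3.26%, 8.69% and 7.07%. The replicate numbers did not pair the libraries: deviations of libraries with the same number correlated at -0.12 to 0.06, with 0 of 18 pairs over 0.1, and 1 of 12 libraries was closest to its own number. The cause of these shifts was not tested.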
